A study of Carassius auratus with 6 samples.

Results

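Genes for Wnt ligands were followed in the mRNA of golden (GO) and greenish grey (GR) body skin of the golden-back crucian carp, a natural color mutant of Carassius auratus. The members were all rows of the deposited gene table whose product name began with protein Wnt-, and there were 62 of them among 83088 gene rows. They fell into 19 ligand types with 1 to 8 gene copies each, and 2 further genes titled proto-oncogene Wnt-3 lay outside this naming rule. Counted as copies were 3 members annotated as long non-coding RNA (lncRNA) genes, of which LOC113081685 was tested. The members LOC113075352 and LOC113058014, annotated as pseudogenes, were counted too. The 6 libraries came from female fish without any stated treatment, 3 from GO and 3 from GR skin, and the study describes its fish as in their first year of life. The golden areas of this fish lie on the back according to the study, and the site from which GR skin was cut was not given in the sources used here, so skin color and site on the body cannot be told apart. For its small RNA libraries the study collected both skin colors from 3 fish. Whether the mRNA libraries came from these fish was not given in the sources used here. The labels do not say whether same-colored libraries came from separate fish, and p-values therefore measure only the spread between these samples, which may be technical.

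Wnt ligands are secreted, lipid-modified glycoproteins that signal over short distances between cells. They bind Frizzled receptors. Together with the co-receptors LRP5 or LRP6 this stabilizes beta-catenin, which then acts with TCF/LEF factors on target genes, while other ligands steer cell polarity and movement through ROR or RYK receptors without beta-catenin. In vertebrate skin, Wnt signals are known for starting appendages such as hair, feathers and scales, and in zebrafish and mouse they also act on the formation of pigment cells from the neural crest.

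Total counts ranged from 51493103 to 67595616 per library. Low counts were not single fragments, since 4 was the most frequent value among counts of 1 to 15 in every library. The libraries differed in composition: skeletal muscle markers took 3.34% to 13.7% of the counts in GO and 2.57% to 9.17% in GR skin. Epidermis markers, of which 87 of 100 genes had counts, took 0.450% to 2.86% in GO and 0.881% to 2.43% in GR skin. The quasi-likelihood test of edgeR, with p-values adjusted by Benjamini-Hochberg, called 0 of 41241 genes (0.0%) at 0.05. At an unadjusted p under 0.05 there were 1777 genes (4.31%), of which 2.34% were lower and 1.97% higher in GO skin as shares of the genes tested. DESeq2 placed 330 genes (0.8%) under an adjusted p of 0.05, 0.461% being lower in GO skin.

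Most Wnt ligand genes were expressed at a low level. Of the 62 members, 5 had no count in any library, 13 had counts below the minimum of a mean of 10 counts over the 6 libraries, and 44 were tested. Mean levels of the tested members ran from 0.0536 to 8.94 FPKM. FPKM stands for the number of fragments divided by the length of the transcript, without introns, and the total of the library. Only 10 members reached a mean of 1 FPKM. The untested members held 4 of the 5 Wnt-8a genes and 1 of the 4 Wnt-8b genes with no count at all, and no library gave an untested member more than 1.38 FPKM. Wnt-8 ligands act on mesoderm and neural patterning in the zebrafish embryo.

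Summed over its copies, Wnt-11 was the most abundant ligand type in GR skin. Wnt-11 is known in zebrafish for the cell movements that lengthen the embryo. Its 5 copies together gave 20.5, 19.4 and 15.4 FPKM in GR libraries 1 to 3 and 3.50, 3.67 and 3.98 FPKM in GO libraries 1 to 3. The colors did not overlap, and the mean in GO skin was 20.2% of that in GR skin. Wnt-2b, which in zebrafish is needed for the liver and the pectoral fin to form, came next by its mean in GR skin. Its 5 copies gave 10.5, 10.5 and 9.91 FPKM in GR against 1.46, 1.12 and 1.21 FPKM in GO libraries 1 to 3. The GO mean was 12.3% of the GR mean, again without overlap.

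Wnt-10b, a ligand of the hair placode in the mouse, gave 9.72, 6.39 and 6.71 FPKM in GR and 2.69, 3.62 and 4.26 FPKM in GO libraries 1 to 3 over its 2 copies. Wnt-16, which acts in zebrafish somites on the origin of blood stem cells, gave 3.51, 4.94 and 1.61 FPKM in GR and 0.629, 0.624 and 0.696 FPKM in GO libraries 1 to 3 over its 4 copies. For both ligands every GO library lay below every GR library. Wnt-7b, which in the mouse acts in lung growth and brain vessels, had 4.37 ± 0.396 FPKM (SD, n = 3) in GR and 2.86 ± 1.63 FPKM (SD, n = 3) in GO skin. Its colors did not overlap either, but the highest GO sum of 3.98 FPKM lay close to the lowest GR sum of 4.09 FPKM. The sums of the very low types Wnt-9b and Wnt-8a were also without overlap in FPKM, all under 0.52 FPKM, and Wnt-8a overlapped once the counts were scaled by library composition.

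**Figure D1:**
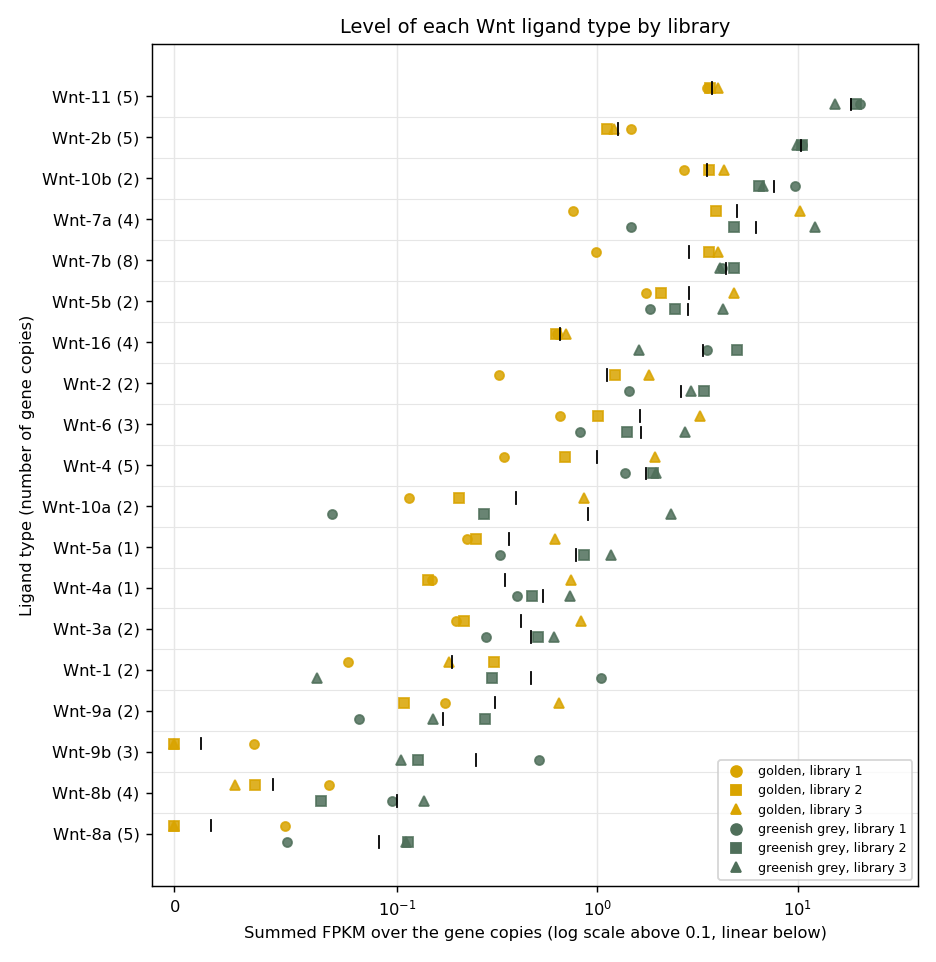
FPKM summed over the gene copies of each of the 19 Wnt ligand types in 3 golden and 3 greenish grey libraries (log scale above 0.1, linear below), with symbols for library numbers and a black bar for the mean of each color. Golden and greenish grey points lie apart for Wnt-11, Wnt-2b, Wnt-10b and Wnt-16, and they interleave for Wnt-7a, Wnt-5b and Wnt-6.

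The order of the ligand types differed between the skins. In GR skin it ran from Wnt-11 (18.4 ± 2.69 FPKM, SD, n = 3) over Wnt-2b (10.3 ± 0.357) to Wnt-10b (7.61 ± 1.83), Wnt-7a (6.17 ± 5.50), Wnt-7b (4.37 ± 0.396) and Wnt-16 (3.36 ± 1.67). In this order of means Wnt-11 lay above Wnt-2b and Wnt-2b above Wnt-10b without overlap. Wnt-10b and Wnt-7a, Wnt-7a and Wnt-7b, and Wnt-7b and Wnt-16 overlapped, and in GR library 3 Wnt-7a was above Wnt-2b. In GO skin Wnt-7a (4.95 ± 4.81), Wnt-11 (3.72 ± 0.241), Wnt-10b (3.52 ± 0.791), Wnt-5b (2.87 ± 1.66) and Wnt-7b (2.86 ± 1.63) did not differ beyond their spread. All members together gave 14.2, 22.8 and 39.99 FPKM in GO libraries 1 to 3 and 58.2, 63.1 and 67.2 FPKM in GR libraries 1 to 3. Wnt-11, Wnt-2b, Wnt-10b and Wnt-16 made up 58.4%, 39.6% and 25.4% of that sum in GO and 76.0%, 65.5% and 50.02% in GR libraries 1 to 3. These types were picked from those already seen to lie apart by color, so their lower share in GO skin is no separate result. The shares overlapped, with 58.4% in GO library 1 and 50.02% in GR library 3.

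To compare the skins gene by gene, the members were read from the fit over all genes. Of the 44 tested members, 36 had a negative log2 fold change (lower in GO skin) and 8 a positive one, where 48.2% of all genes tested were negative. This split was 29 to 15 without GO library 1, 31 to 13 without GO library 2, 25 to 19 without GR library 3, and 28 to 16 in the fit that holds the muscle share as a covariate. The median was -0.97, against 0.022 over all genes tested, and it was -0.62 without GO library 1. An unadjusted p under 0.05 together with a fitted change past 2-fold was found in 13 members, and these were lower in GO skin without exception. They were 29.5% of the tested members, with each gene copy counted singly (3 of Wnt-2b, 3 of Wnt-11 and 4 of Wnt-16). Since the counting of reads that match several copies is unknown, these copies may not be separate results. Of all genes tested 3.21% passed both limits, 1.76% lower and 1.45% higher in GO skin. Not all of the 13 fitted folds are firm. LOC113069032 and LOC113046960 had no count in GO skin, and the bound of LOC113046960 was only 1.86-fold. LOC113048608 had no more than 12 counts in any GO library. LOC113070545 passed narrowly, at -1.02, and was at -0.98 with the replicate number as a block. Without overlap between the colors, in counts scaled by library size and composition, were 13 members, 10 of them past the threshold, and all 13 were lower in GO skin. They include LOC113069032 and LOC113046960, whose colors could overlap if GO libraries held up to 12 counts. Of all genes tested 10.2% did not overlap, 5.51% lower and 4.72% higher in GO skin. A pair of members had no count in GO skin and passed the minimum on counts only through GR skin, so these shares describe the tested members and not the 62.

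None of these differences was a call after adjustment over all genes. In edgeR 0 members had an adjusted p under 0.05, whether without or with the replicate number as a block, and the lowest adjusted p was 0.353 without and 0.196 with it. DESeq2 gave 6 members an adjusted p under 0.05, beside 0.8% of all genes tested. Among these 6 were LOC113069032 and LOC113046960, which had no count in GO skin. They passed the minimum on counts only through GR skin. Leaving out GR library 2 lowered the count of members at an unadjusted p under 0.05 from 13 to 8. The share over all genes tested fell too, from 4.31% to 2.41%. With the replicate block 15 members had an unadjusted p under 0.05, all lower in GO skin, while 10.8% of all genes tested had one, 5.69% lower and 5.07% higher. Of these 15, 12 were among the 13.

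**Figure D2:**
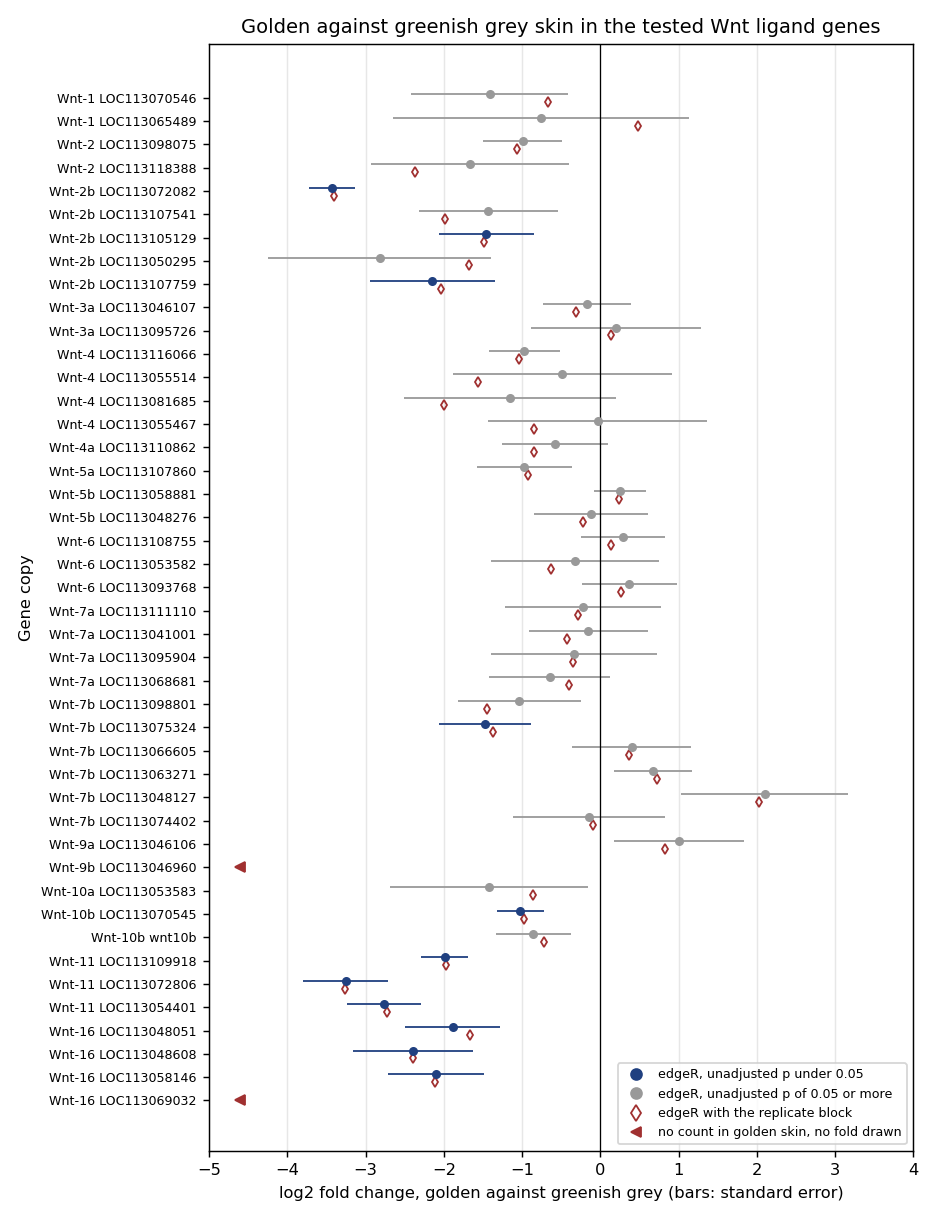
Log2 fold change of golden against greenish grey skin (x axis, negative where lower in golden) for each of the 44 tested Wnt ligand genes, with standard errors as bars from the edgeR fit and diamonds for the fit with the replicate block, and arrowheads at the edge for genes with no count in golden skin. Of the 44 genes, 36 lie left of 0, and the 13 genes at an unadjusted p under 0.05 all do.

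Wnt-11 copies stood apart most evenly. The copy LOC113109918 (chromosome 10, 13370976 to 13381604, plus strand), the most abundant of all 62 members, had 3.17, 3.32 and 3.38 FPKM in GO and 16.8, 14.3 and 12.7 FPKM in GR libraries 1 to 3. The GO libraries varied little, and the lowest GR library lay above all of them. Its log2 fold change was -1.99 (SE 0.30) at an unadjusted p of 0.00033, and its edgeR adjusted p was 0.906.

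The Wnt-11 copy LOC113072806 (unplaced scaffold, 2280 to 12236, minus strand) had 0.173, 0.0942 and 0.266 FPKM in GO and 1.88, 2.47 and 1.43 FPKM in GR libraries 1 to 3, a log2 fold change of -3.25 (SE 0.54). LOC113054401 (chromosome 35, 11677750 to 11688685, plus strand) had 0.124, 0.255 and 0.335 FPKM in GO and 1.53, 2.53 and 1.17 FPKM in GR libraries 1 to 3, a log2 fold change of -2.77 (SE 0.47). Neither copy overlapped between the colors, and both kept an unadjusted p under 0.05 when any single library was left out, as did LOC113109918. LOC113109918 carried 80.8% of the summed Wnt-11 level. The further copies LOC113049554 on chromosome 30 and LOC113076387 on chromosome 5 stayed below the minimum on counts. They had 21, 15 and 10 counts and 7, 0 and 0 counts in GR, and 4, 0 and 0 counts and no count in GO libraries 1 to 3.

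Among Wnt-2b copies, LOC113072082 (unplaced scaffold, 142623 to 153723, plus strand) had the lowest p-value of all 41241 genes tested without the replicate block and ranked 2 with it. It had 0.554, 0.618 and 0.731 FPKM in GO and 7.73, 8.72 and 6.45 FPKM in GR libraries 1 to 3. The colors were far apart and the libraries of a color close together, with 0.635 ± 0.0893 against 7.63 ± 1.14 FPKM (SD, n = 3). Its log2 fold change was -3.43 (SE 0.29) at an unadjusted p of 8.77e-06 and an edgeR adjusted p of 0.353. Without any single library it stayed between -3.58 and -3.36. In the DESeq2 fit its adjusted p was 9.48e-25.

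The other 4 Wnt-2b copies were lower in level and less even. LOC113105129 (chromosome 6, 27944131 to 27952689, minus strand) had 0.295, 0.186 and 0.163 FPKM in GO and 0.911, 0.699 and 0.444 FPKM in GR libraries 1 to 3, a log2 fold change of -1.46 (SE 0.61). LOC113107759 (chromosome 8, 24623759 to 24636694, minus strand) had 0.0966, 0.120 and 0.0508 FPKM in GO and 0.800, 0.257 and 0.295 FPKM in GR libraries 1 to 3, a log2 fold change of -2.15 (SE 0.80). Both were at an unadjusted p under 0.05 (0.0495 and 0.0321), and both lost this in several fits with a library left out. For LOC113105129 these were the fits without GO library 2 or 3 or GR library 1 or 2 (unadjusted p of 0.120, 0.121, 0.158 and 0.0940). For LOC113107759 they were the fits without GO library 2 or 3 or GR library 1 (unadjusted p of 0.0557, 0.0768 and 0.183), and the log2 fold change without GR library 1 was -1.32.

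LOC113107541 (chromosome 8, 20314532 to 20327897) had 0.497, 0.112 and 0.0754 FPKM in GO and 1.06, 0.720 and 0.541 FPKM in GR libraries 1 to 3. It was at an unadjusted p of 0.155 without and 0.0109 with the replicate block, and leaving out GO library 1 moved its log2 fold change from -1.43 to -2.98. LOC113050295 on chromosome 31 was seen mainly in GR library 3, with 2.19 FPKM, while the other 5 libraries had 0.193 FPKM or less. LOC113072082 alone carried 71.3% of the summed Wnt-2b level.

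Of the 4 Wnt-16 copies, 3 had counts in both skins, and these were lower in GO skin at an unadjusted p under 0.05. LOC113048051 (chromosome 29, 10654541 to 10659293, minus strand) had 0.436, 0.372 and 0.460 FPKM in GO and 1.93, 2.69 and 0.651 FPKM in GR libraries 1 to 3, a log2 fold change of -1.89 (SE 0.61). LOC113048608 (chromosome 29, 9611188 to 9615660, plus strand) had 0.143, 0.130 and 0.0763 FPKM in GO and 0.788, 1.05 and 0.411 FPKM in GR libraries 1 to 3. Its 12, 12 and 8 counts in GO libraries 1 to 3 did not exceed the floor of 12 counts per library, so no fold is given. LOC113058146 (chromosome 4, 8941851 to 8948141, plus strand) had 0.0493, 0.121 and 0.16 FPKM in GO and 0.484, 0.665 and 0.393 FPKM in GR libraries 1 to 3, a log2 fold change of -2.10 (SE 0.61). In each of these copies GR library 3 was the lowest of its color, and in FPKM every GO library was lower still. Without GR library 2 the 3 copies, in this order, had an unadjusted p of 0.0722, 0.0692 and 0.0511. LOC113048051 also passed 0.05 without GO library 2, at an unadjusted p of 0.0558, and its colors overlapped once the counts were scaled by library composition.

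The fourth Wnt-16 copy, LOC113069032 (unplaced scaffold, 21601 to 24934, minus strand), had no count in any GO library and 27, 59 and 18 counts in GR libraries 1 to 3. By the mean of scaled counts it was at least 2.43-fold lower in GO skin, computed against a floor of 12 counts in each GO library. Single libraries can overlap at this floor, since after scaling 12 counts in GO library 1 exceed the 18 counts of GR library 3. Wnt-9b, a ligand of kidney tubule formation in the mouse, showed the same form at a lower level in its copy LOC113046960 (chromosome 3, 9225040 to 9233620, plus strand). It had no count in GO and 27, 33 and 17 counts in GR libraries 1 to 3, and was at least 1.86-fold lower by the mean. After scaling, its 17 counts in GR library 3 also lie below the floor of GO library 1. The remaining Wnt-9b copies had 23 counts or fewer in any library and were not tested. Bounds and floors cover counting error only, and that of GO skin alone.

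**Figure D3:**
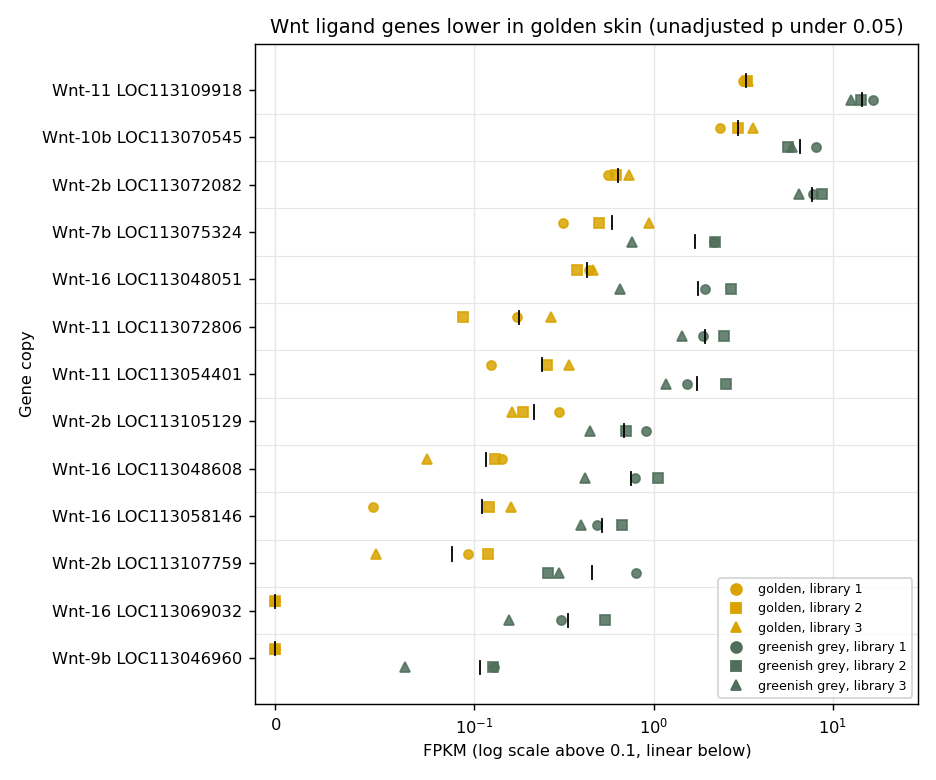
FPKM of the 13 Wnt ligand genes at an unadjusted p under 0.05 (log scale above 0.1, linear below), for 3 golden and 3 greenish grey libraries, with a black bar for the mean of each color. In LOC113109918 the golden libraries lie at 3.17 to 3.38 FPKM and the greenish grey libraries at 12.7 to 16.8 FPKM, and LOC113069032 and LOC113046960 lie at 0 in golden skin.

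The Wnt-10b copies differed less in fold but were among the more abundant members. LOC113070545 (unplaced scaffold, 936226 to 941324, minus strand) had 2.35, 2.95 and 3.60 FPKM in GO and 8.09, 5.61 and 5.91 FPKM in GR libraries 1 to 3. Its colors did not overlap, and its log2 fold change was -1.02 (SE 0.30) at an unadjusted p of 0.0112, with the p staying under 0.05 when any single library was left out. The second copy, wnt10b (chromosome 48, 2029659 to 2034254, plus strand), had 0.344, 0.669 and 0.666 FPKM in GO and 1.63, 0.781 and 0.805 FPKM in GR libraries 1 to 3. It was also without overlap, at a log2 fold change of -0.86 (SE 0.48) and an unadjusted p of 0.121, and LOC113070545 held 85.4% of the summed level.

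Each Wnt-10b copy had a Wnt-1 gene beside it on the opposite strand, an arrangement known from other vertebrates. LOC113070546 began 2298 bases past LOC113070545, and LOC113065489 ended 3033 bases before wnt10b. The Wnt-1 genes did not share the levels of their neighbors. LOC113070546 had 0.0779, 0.237 and 0.113 FPKM in GO and 0.861, 0.255 and 0.0642 FPKM in GR libraries 1 to 3, and its log2 fold change of -1.41 (SE 1.01) reached 0.014 when a single library was left out. Wnt-1 is known for setting up the midbrain and hindbrain border and is also made in the dorsal neural tube.

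Other ligands were also found in the neighbor pairs that vertebrates share. Wnt-6 and Wnt-10a genes lay on the same strand, 8662 bases apart on chromosome 9 (LOC113108755 and LOC113108753) and 8900 bases apart on chromosome 34 (LOC113053582 and LOC113053583). Wnt-3a and Wnt-9a genes lay on opposite strands, 26931 bases apart on chromosome 27 and 19442 bases apart on an unplaced scaffold. These numbers are the gaps between the annotated gene ends. In level, Wnt-6 exceeded Wnt-10a in the chromosome 9 pair, with means of 0.688 and 0.0704 FPKM over the 6 libraries, and the chromosome 34 pair had 0.682 and 0.572 FPKM. The Wnt-3a gene of the chromosome 27 pair had 0.336 and its Wnt-9a neighbor 0.226 FPKM.

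Because the genome of this fish is duplicated, several ligands had a copy on each of a pair of chromosomes whose numbers differ by 25. Such copies were found for Wnt-11 on chromosomes 10 and 35 and on 5 and 30, Wnt-16 and Wnt-5b on 4 and 29, Wnt-6 and Wnt-10a on 9 and 34, and Wnt-2b on 6 and 31. Their levels could be far apart. The Wnt-11 copies on chromosomes 10 and 35 had means of 8.94 and 0.991 FPKM over the 6 libraries, while the Wnt-6 copies on chromosomes 9 and 34 had 0.688 and 0.682 FPKM. How reads that match several copies were counted was not given in the sources used here, so the division between copies is uncertain.

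In a further set of ligands, the levels differed more between library numbers than between the means of the colors. Wnt-7a, which in the mouse marks the dorsal ectoderm of the limb, was led by LOC113111110 (chromosome 11, 14397714 to 14407971, plus strand). It had 0.387, 2.61 and 6.79 FPKM in GO and 0.854, 2.45 and 8.61 FPKM in GR libraries 1 to 3. The library numbers ranked in the same order in both colors. They differed by 11.6 times in GO and 8.26 times in GR skin in scaled counts. The log2 fold change between the colors was -0.22 (SE 0.99), an unadjusted p of 0.830, and its sign changed without GO library 1 (0.28), without GR library 3 (0.96) and with the muscle share as a covariate (0.50). The summed Wnt-7a level was 0.760, 3.90 and 10.2 FPKM in GO and 1.47, 4.81 and 12.2 FPKM in GR libraries 1 to 3, and GO was the lower in each numbered pair.

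Wnt-5b, which acts on cell movements of the zebrafish gastrula, was likewise highest in library 3 of both colors in LOC113058881 (chromosome 4, 12634458 to 12712469, plus strand), with 1.55, 1.48 and 3.10 FPKM in GO and 1.48, 1.62 and 2.56 FPKM in GR libraries 1 to 3. Its log2 fold change was 0.25 (SE 0.33) at an unadjusted p of 0.469. The Wnt-6 copy LOC113053582 (chromosome 34) had 0.0442, 0.403 and 1.35 FPKM in GO and 0.190, 0.501 and 1.61 FPKM in GR libraries 1 to 3. The Wnt-10a copy LOC113053583 beside it had 0.0474, 0.171 and 0.672 FPKM in GO and 0.0709, 0.271 and 2.20 FPKM in GR libraries 1 to 3. Both were lower in GO skin in all 3 numbered pairs. In people, changes in WNT10A are known to impair teeth and hair. In these copies library 3 of each color was the highest and, except in LOC113058881, library 1 the lowest.

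In 16 of the 44 tested members (36.4%) library 3 was the highest in both colors, and this was so in 23.4% of all genes tested. In 11 members library 1 was the lowest in both colors as well, against 12.3% of all genes. None of the Wnt-11, Wnt-16 or Wnt-10b copies was among these 11, and of the Wnt-2b copies only LOC113050295 was. The epidermis share of counts was lowest in library 1 of both colors too, at 0.450%, 1.62% and 2.86% in GO and 0.881%, 2.43% and 2.05% in GR libraries 1 to 3. The muscle share was highest there, at 13.7%, 7.84% and 3.34% in GO and 9.17%, 2.57% and 3.59% in GR libraries 1 to 3. No marker product of either list was at 0 in all libraries. The muscle share was held as a covariate in an alternative fit, and the epidermis share in none. The part of these shares in the order of the library numbers was not tested.

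**Figure D4:**
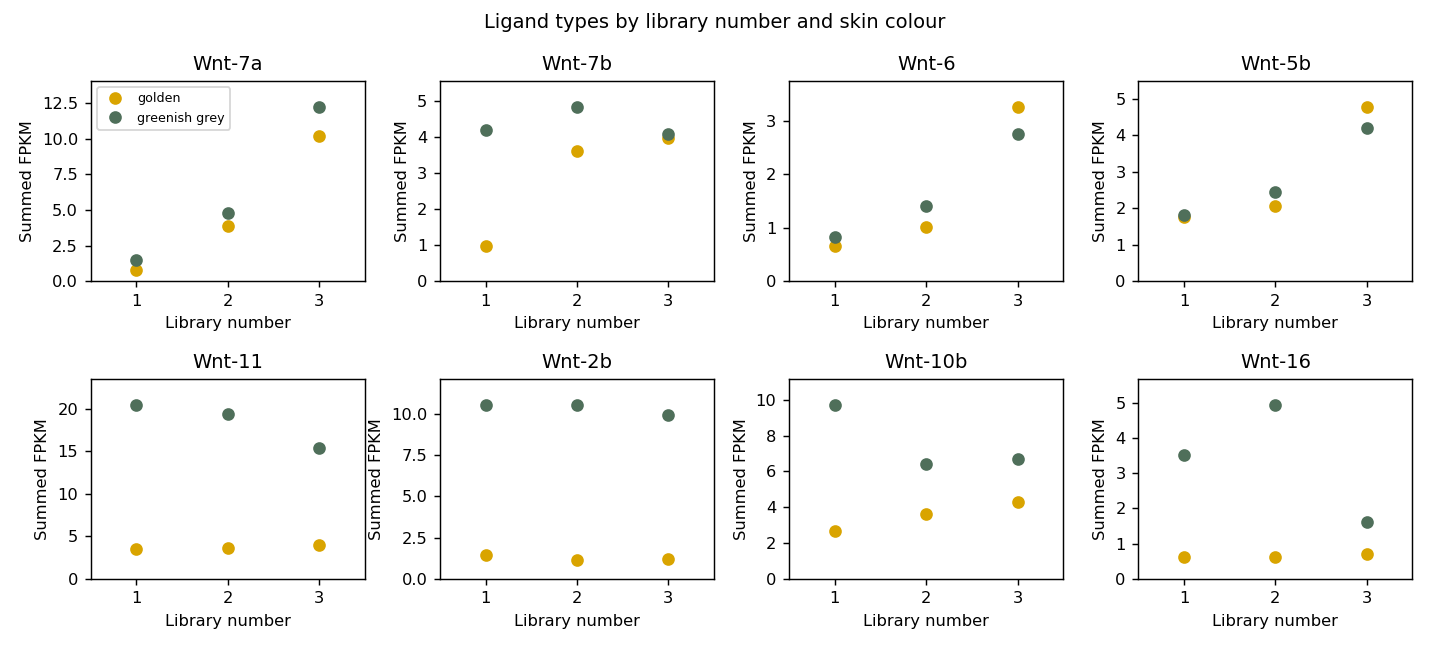
Summed FPKM of 8 Wnt ligand types against the library number (labels, not an order), with golden and greenish grey libraries as separate points. Wnt-7a is near 10.2 and 12.2 FPKM in the libraries numbered 3 of both colors, while Wnt-11 and Wnt-2b are apart by color at every number.

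Wnt-2, known from mouse lung formation, had its main copy in LOC113098075 (unplaced scaffold, 29002 to 36542, plus strand), with 0.321, 1.07 and 1.39 FPKM in GO and 1.08, 2.54 and 2.34 FPKM in GR libraries 1 to 3. The colors overlapped, but GO was lower in each numbered pair, and the log2 fold change was -0.99 (SE 0.51) at an unadjusted p of 0.0915, or 0.0130 with the replicate block. The other copy LOC113118388 (chromosome 18, 9728912 to 9736873, minus strand) had 0, 0.158 and 0.411 FPKM in GO and 0.360, 0.886 and 0.597 FPKM in GR libraries 1 to 3. It was without overlap in scaled counts, at a log2 fold change of -1.66 (SE 1.26) and an unadjusted p of 0.231.

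The Wnt-7b copy LOC113098801 (unplaced scaffold, 33485 to 70520, plus strand) had 0.113, 0.763 and 1.93 FPKM in GO and 1.05, 2.05 and 2.82 FPKM in GR libraries 1 to 3. Its unadjusted p was 0.229 without and 0.0293 with the replicate block, at log2 fold changes of -1.04 (SE 0.79) and -1.45. LOC113075324 (unplaced scaffold, 4859 to 11426, plus strand), annotated as a partial Wnt-7b, had 0.312, 0.499 and 0.946 FPKM in GO and 2.16, 2.20 and 0.755 FPKM in GR libraries 1 to 3. The colors overlapped, and its unadjusted p of 0.0409 became 0.0850 with the block. It was also lost without GO library 1 or 2 or GR library 1 or 2 (unadjusted p of 0.0990, 0.103, 0.124 and 0.114).

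The 25 tested members not named by the rule had log2 fold changes from -2.82 to 2.10, 18 negative and 7 positive, at an unadjusted p of at least 0.0712. Their mean levels ran from 0.0595 to 0.929 FPKM. The largest positive value, 2.10 (SE 1.07), was that of the Wnt-7b copy LOC113048127 on chromosome 29, with 0.108, 0.468 and 0.126 FPKM in GO and 0.105, 0.0209 and 0.0395 FPKM in GR libraries 1 to 3. This copy passed the minimum on counts only through GO skin, with 16, 4 and 8 counts in GR libraries 1 to 3. An lncRNA gene also titled Wnt-7b, LOC113048128, overlaps LOC113048127 on the opposite strand. The use of strand in the counting was not given in the sources used here, so their reads cannot be told apart. This pair was picked after the values were seen.

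Within each numbered pair more members were lower than higher in GO skin, least so in pair 3. The median log2 ratio of GO to GR skin in scaled counts was -0.89 over 38 members in pair 1, -0.97 over 41 members in pair 2 and -0.37 over 41 members in pair 3. Only members with a count in both libraries of a pair have such a ratio. Among these, GO skin was the lower in 29, 32 and 24 members, respectively. The same medians and counts were not computed over all genes tested, so single pairs have no background beside them. With libraries at 0 included, 22 of the 44 tested members were lower in GO skin in all 3 pairs, where 19.1% of all genes tested were. The 22 held all 3 tested Wnt-11 copies, all 4 Wnt-16, both Wnt-10b and all 5 Wnt-2b copies.

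Marker genes of several cell types were read beside these values. Melanophore markers, of which 18 of 19 genes had counts, took 0.00287% to 0.00499% of the counts in GO and 0.00854% to 0.0239% in GR skin. Endothelium markers, of which 25 of 26 genes had counts, took 0.0246% to 0.0287% in GO and 0.0378% to 0.0416% in GR skin. Both lists were lower in every GO library, as the Wnt-11, Wnt-2b, Wnt-10b and Wnt-16 sums were. Dermal fibroblast markers (26 of 26 genes) took 0.316%, 0.150% and 0.112% in GO and 0.868%, 0.266% and 0.173% in GR libraries 1 to 3, so that the colors overlapped and GO was the lower in each numbered pair. The colors also overlapped for nerve, scale-forming cell and erythrocyte markers. No marker product matched in the 8 lists was at 0 in all libraries. Fewer cells of a type and less RNA per cell cannot be told apart in such bulk samples. Apart from the fit with the muscle share as a covariate, the part of any cell type in the ligand levels was not tested.

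The other genes of the pathway were read from a list of 162 genes, of which 130 were tested. At an unadjusted p under 0.05, 6 were lower and 2 higher in GO skin, which is 6.15% of these 130 beside 4.31% of all genes tested. The median log2 fold change was -0.21, and 0 genes had an edgeR adjusted p under 0.05, where DESeq2 gave 1. With the replicate block 16 were lower and 2 higher (13.8% of the 130, beside 10.8% of all genes tested), and 7 of the 16 were secreted antagonists. The 8 genes became 4 without GR library 1 and 13 without GO library 3, where the shares over all genes tested were 3.69% and 6.92%. Of 3 tested genes for Wnt release and acylation none was at an unadjusted p under 0.05 in either fit.

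TCF/LEF factors act on target genes together with beta-catenin. Of 11 tested TCF/LEF genes, 2 had an unadjusted p under 0.05, both changes being past 2-fold, and both encode LEF1, the lymphoid enhancer-binding factor. LOC113063835 had 0.302, 2.16 and 1.44 FPKM in GO and 8.22, 5.09 and 3.85 FPKM in GR libraries 1 to 3, a log2 fold change of -2.10 (SE 0.67). LOC113044954 had 0.461, 0.902 and 1.09 FPKM in GO and 2.90, 1.65 and 1.71 FPKM in GR libraries 1 to 3, a log2 fold change of -1.28 (SE 0.41). Neither overlapped between the colors. The other LEF1 genes, LOC113044020 and LOC113044058, had log2 fold changes of -0.86 and -0.85, and their colors overlapped. Of all genes tested 3.21% passed both limits and 10.2% did not overlap.

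Of 26 tested genes listed as antagonists by product name, a dickkopf-related protein 3 gene passed both 2-fold and an unadjusted p of 0.05. Whether its product acts as an antagonist here was not tested. Other antagonist genes were past 2-fold in either direction without reaching that p, and 7 reached it with the replicate block, all lower in GO skin. The dickkopf-related gene, LOC113106484, had 0.575, 0.914 and 0.934 FPKM in GO and 1.99, 6.89 and 3.36 FPKM in GR libraries 1 to 3, a log2 fold change of -2.16 (SE 0.48) at an unadjusted p of 0.00292. Of 45 tested receptor genes, the frizzled-8 gene LOC113042242 was the one that passed both limits, and it was higher in GO skin. Other receptor genes past 2-fold did not reach that p. It had 0.997, 0.437 and 0.476 FPKM in GO and 0.115, 0.0644 and 0.296 FPKM in GR libraries 1 to 3, a log2 fold change of 2.30 (SE 0.78). LOC113106484 and LOC113042242 were without overlap between the colors. The other tested frizzled-8 genes, LOC113045295 and LOC113045309, had log2 fold changes of -0.49 and 0.13. The other dickkopf-related protein 3 genes, LOC113043107, LOC113066851 and LOC113066720, had 0.26, -0.92 and 0.017.

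Feedback targets are genes that Wnt signals switch on and that damp the pathway. Of 14 tested, 2 were lower in GO skin at an unadjusted p under 0.05, at less than 2-fold, and both are named here after their values were seen. The axin-2 gene LOC113053305, a scaffold of the complex that destroys beta-catenin, had 1.04, 1.30 and 1.19 FPKM in GO and 2.42, 2.54 and 1.79 FPKM in GR libraries 1 to 3, a log2 fold change of -0.78 (SE 0.31). The naked cuticle homolog 1 gene LOC113051417, whose product binds dishevelled, had 1.42, 1.83 and 2.15 FPKM in GO and 3.04, 3.38 and 4.69 FPKM in GR libraries 1 to 3, a log2 fold change of -0.88 (SE 0.25). Their values did not overlap between the colors. The other naked cuticle homolog 1 gene, LOC113106059, had a log2 fold change of -0.16, and its colors overlapped. The other axin-2 gene, LOC113047100, had -0.80 without overlap. Also chosen after their values were seen are the remaining genes at an unadjusted p under 0.05, a secreted frizzled-related protein 1 gene (LOC113109784, log2 fold change -0.999, SE 0.32) and a glycogen synthase kinase-3 beta gene (LOC113071502, log2 fold change 0.72, SE 0.27).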

How the data were processed

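Skin mRNA was measured in 6 libraries. The authors deposited a raw count per gene and library, not normalized, and an FPKM value per gene and library; the deposited table shows 0.0001 FPKM where the count is 0, which was set to 0. Aligner, counter, strand use and filters were not given in the sources used here. The labels name the mouse builds GRCm38 and mm10, but the gene rows follow RefSeq's ASM336829v1, on which coordinates are given: 60 members matched it by gene ID and 2 by symbol, all 62 with the same start. Groups and replicate numbers came from the library titles.

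Genes with a mean of at least 10 counts were tested two-sided in R 4.3.3 with edgeR 4.0.16, using glmQLFit and glmQLFTest after TMM scaling, and Benjamini-Hochberg adjustment over all genes tested. This minimum was set below 1 FPKM, used in an earlier analysis, to keep ligands of low level. Overlap was judged on CPM scaled by TMM, whose factors ran from 0.757 to 1.15. Fitted fold changes use this scaling, and FPKM does not. Where a color had no count, a bound on the ratio of mean scaled counts was computed against 12 counts per library (3 steps of 4 counts). The fit was also run on simulated counts, with changes set in genes of higher counts than many members have. Most simulated 2-fold changes were not called there.

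Same-numbered libraries deviated together from their color means (correlations of 0.520, 0.201 and 0.570 for numbers 1, 2 and 3). The main fit did not pair them, and an alternative fit held the replicate number as a block. Log2 fold changes, standard errors and p-values are those of the unpaired fit unless another fit is named. The labels do not say what the numbers mark. The fit with the replicate number as a block is given where it changes a call or a count.

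Named were tested members at an unadjusted p under 0.05 without or with the block, members past 2-fold without overlap, and members of at least 1 FPKM on average, and from the pathway list the genes that passed both 2-fold and an unadjusted p of 0.05. Other members are named as copies or neighbors of these, or to show the library numbers, after their values were seen. Members and lists were chosen with earlier results of these data known. Alternatives were edgeR with RLE scaling, DESeq2 1.42.0, limma 3.58.1 on log2(FPKM + 1) and log2(FPKM + 0.1), other minimums, the muscle share as a covariate and left-out libraries. Marker and pathway genes were matched by the start of the product name.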

Additional observations from a re-analysis of the deposited data

How the results depend on the processing

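At an adjusted p under 0.05 there were 0 genes in edgeR, 330 in DESeq2 and 3 in limma on log2(FPKM + 0.1). The 1324 genes that passed both 2-fold and an unadjusted p of 0.05 became 2170 with the replicate block, 731 with a minimum of 1 FPKM, 514 in limma on log2(FPKM + 1), 2296 with the muscle share as a covariate and 674 without both libraries numbered 2, and ranged from 900 to 2313 with single libraries left out. The 13 ligand genes at an unadjusted p under 0.05 became 6 with a minimum of 1 FPKM, which left 10 to test, and 6 without both libraries numbered 2, and ranged from 8 to 13 with single libraries left out. The pairing of libraries by number moved them to 15. The 8 pathway genes became 18 with the replicate block, 17 in limma on log2(FPKM + 1), 18 with the muscle share and 3 without both libraries numbered 2, and ranged from 4 to 13 with single libraries left out. Of all genes tested, 4.31% had an unadjusted p under 0.05 in the main fit, 4.40% with a minimum of 1 FPKM and 10.8% with the replicate block. The share was 5.75% in limma on log2(FPKM + 1), 8.34% with the muscle share and 1.63% without both libraries numbered 2. It ranged from 2.41% to 6.92% with single libraries left out. The median log2 fold change of the ligands, -0.97, was -0.24 in limma on log2(FPKM + 1), -0.64 with the muscle share, -0.89 with the replicate block and -1.22 to -0.62 with single libraries left out. The Wnt-7a gene LOC113111110 was at 0.50 with the muscle share and ranged from -1.15 (without GO library 3) to 0.96 (without GR library 3), with 0.28 without GO library 1. Counts divided by 4, an alternative chosen after seeing the data, gave 13 ligand genes. The minimum of 1 FPKM left fewer genes to test; for the other settings the cause was not tested. The low counts of most members limit what can be detected.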
